A study of Mus musculus with 48 samples.

Results

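In tumor line 19554, the Ezh2 KO arm is compared with its Cas9 arm. The members are 6 RNA-seq libraries of the 48 in the series, chosen by the line and arm in their titles. The arms are the 3 libraries labelled Ezh2 KO and the 3 labelled Cas9, and the fit used these 6 libraries alone. All 6 came from a mouse model of MYC amplified Group 3 (G3) medulloblastoma, a tumor of the cerebellum. The labels give the genotype p53-/-;p18-/- for both arms, so the control shares the loss of these tumor suppressors. Tumorsphere cells of the line were infected with retroviral vectors, sorted for the RFP+/GFP+ fraction, expanded in culture and placed in Matrigel into the cerebral cortex of CD-1 nu/nu mice, which lack a thymus. The labels give the Cas9 arm as a Cas9 control and the other arm as carrying an Ezh2 knockout. They do not say whether replicates of an arm were separate animals, and both arms come from 1 tumor line, so the p-values measure the spread between these samples only. The tumors were grown in the cortex rather than the cerebellum, and tissue of the host can be part of each library.

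Ezh2 is the enzyme of the Polycomb complex PRC2 and places methyl groups on lysine 27 of histone H3. The mark is known to keep developmental regulators silent in cells that do not need them, among them the Hox genes, which lay out position along the body axis and are grouped in the clusters Hoxa, Hoxb, Hoxc and Hoxd. Eed and Suz12 are the other core subunits, Ezh1 is a related catalytic subunit, and many Polycomb targets have promoters rich in CpG.

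The upstream sequences of 4 genes that rose are shown because the comparison between tumor lines or the Hox result turns on these genes: Igf2bp3 and Lin28b, which code for RNA-binding proteins of the fetal programme, Twist2, a mesenchymal transcription factor, and Hoxd13, the last gene of its cluster. Each is the 250 bases before the gene's start in RefSeq on build GRCm38.p6, written 5′ to 3′ along the gene's strand, with each CpG in capitals. The windows are chr6:49214955-49215204 on the minus strand for Igf2bp3, chr10:45470202-45470451 on the minus strand for Lin28b, chr1:91801211-91801460 on the plus strand for Twist2 and chr2:74667975-74668224 on the plus strand for Hoxd13.
Igf2bp3: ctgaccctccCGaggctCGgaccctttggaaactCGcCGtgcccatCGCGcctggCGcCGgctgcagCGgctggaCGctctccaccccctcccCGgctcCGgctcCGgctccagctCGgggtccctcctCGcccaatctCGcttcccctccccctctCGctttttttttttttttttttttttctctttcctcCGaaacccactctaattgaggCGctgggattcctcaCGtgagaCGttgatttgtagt
Lin28b: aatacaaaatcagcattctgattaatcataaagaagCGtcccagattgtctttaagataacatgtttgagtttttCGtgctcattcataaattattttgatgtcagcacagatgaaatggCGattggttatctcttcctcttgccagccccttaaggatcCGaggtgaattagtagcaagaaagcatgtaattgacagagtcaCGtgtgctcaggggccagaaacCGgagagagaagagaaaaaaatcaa
Twist2: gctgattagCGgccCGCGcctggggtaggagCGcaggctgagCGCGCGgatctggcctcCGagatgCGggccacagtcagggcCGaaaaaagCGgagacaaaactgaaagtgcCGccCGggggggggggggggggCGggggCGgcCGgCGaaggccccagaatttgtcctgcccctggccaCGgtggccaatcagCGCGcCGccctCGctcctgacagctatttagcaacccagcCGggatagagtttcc
Hoxd13: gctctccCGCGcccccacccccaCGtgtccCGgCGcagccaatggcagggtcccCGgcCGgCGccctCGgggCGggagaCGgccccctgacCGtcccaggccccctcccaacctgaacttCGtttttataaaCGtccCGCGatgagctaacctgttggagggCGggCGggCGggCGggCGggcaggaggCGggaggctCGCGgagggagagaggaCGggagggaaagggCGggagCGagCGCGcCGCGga
The Igf2bp3 window held 21 CpG, the Lin28b window 6, the Twist2 window 23 and the Hoxd13 window 31. At least as many CpG were present in 16.3% of all 32851 windows of this length for Igf2bp3, in 50.4% for Lin28b, in 13.3% for Twist2 and in 5.19% for Hoxd13. The motif searched was CG, which reads the same on both strands. Of the 28 genes that rose, 18 had a window in the RefSeq table, 23 windows in all, and these held 3 to 48 CpG with a median of 13, beside a median of 6 over all windows. The Lin28b window is thus at the median of all windows, and the Hoxd13 window is among the richer ones. These counts describe the sequence and were not tested.

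In the Ezh2 KO arm, 28 genes rose and 1 fell. The genes that rose were Hox genes of all 4 clusters (Hoxa10, Hoxb13, Hoxc4, Hoxc8, Hoxd3, Hoxd4, Hoxd8, Hoxd10 and Hoxd13), RNA-binding and chromatin proteins of the fetal programme (Igf2bp1, Igf2bp3, Lin28b and Hmga2), transcription factors of mesenchyme, limb and heart (Twist2, Pitx1, Alx1, Hand2 and Gata4), Six4 and Tfap2a, the neurofilaments Nefl and Nefm, the imprinted genes Zdbf2, Peg10 and Sfmbt2, and Zfp618, Rgs4 and Gjc1. Angpt1, a secreted ligand of the endothelial receptor Tek, fell. The 29 genes were 0.174% of the 16626 genes tested, with 0.168% higher and 0.00601% lower, at an adjusted p below 0.05 in edgeR's quasi-likelihood test with Benjamini-Hochberg adjustment. In all 29 the 3 libraries of one arm lay apart from the 3 of the other, which was also so for 7.95% of all tested genes in the higher and 6.83% in the lower direction. At an unadjusted p below 0.05 there were 891 genes higher (5.36%) and 476 lower (2.86%), and the median log2 change of all tested genes was -0.0185. Levels are in CPM, a gene's read count scaled to a common library total after TMM normalization, and log2 changes are Ezh2 KO minus Cas9.

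The count moved with each library left out. Without Cas9 replicate 1, 2 or 3 the test called 6, 1 and 19 genes, of which 5, 1 and 14 were among the 29, and without Ezh2 KO replicate 1, 2 or 3 it called 1, 2 and 8, of which 1, 2 and 7 were among the 29. With the replicate number as a block it called 4, of which 3 were among the 29, and whether the numbers pair the arms is not settled by the labels or the data. All 29 kept their direction in all of these fits, which follows from arms that lie apart and is no further support. Zdbf2 was called in all 6 fits with a library left out, Igf2bp3 in 3, and 12 of the 29 in none.

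**Figure D1:**
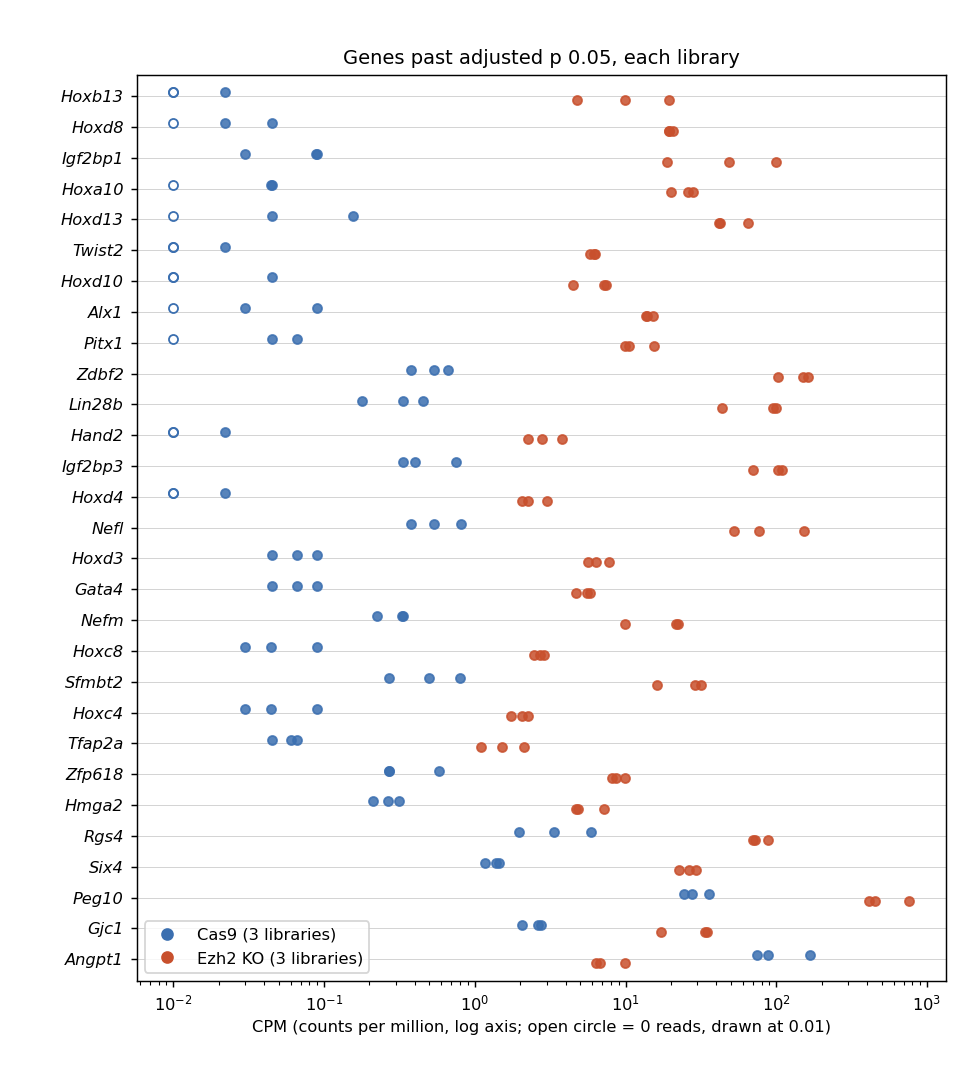
Level of each of the 29 genes (CPM, log axis) in the 3 Cas9 libraries (blue) and the 3 Ezh2 KO libraries (red) of line 19554, with open circles for libraries with 0 reads, drawn at 0.01. The red points lie to the right of the blue ones in 28 genes and to the left in Angpt1, from 74.8 to 168 CPM in Cas9 against 6.35 to 9.94 CPM in Ezh2 KO.

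The libraries held 22826419 to 42892573 reads on genes. The share of reads on no annotated gene was 24.0% to 42.6%, and the number of genes with a read 22447 to 30351, both highest in Ezh2 KO replicate 3. Cas9 replicate 3 stood apart on the first principal component, at 140.7 against -43.3 to 14.3 for the other libraries, a component that held 39.4% of the variance. In that library H19 was at 7447 CPM against 3.60 to 112 in the others, Igf2 at 387 against 0.628 to 4.59, Myc at 168 against 799 to 1163, and Atf4 at 716 against 149 to 192. The pan-neuronal genes summed to 218 CPM there, against 815 and 1381 in the other Cas9 libraries. Ezh2 KO replicate 3 held the highest red blood cell sum, 1321 CPM against 25.6 to 368, and the highest pericyte and smooth muscle sum, 603 CPM against 91.4 to 181. None of the 12 lists of markers of other cell types had a called member. Only 0.174% of all tested genes were called, so short lists without one say little about these cell types. Their part in the results was not tested, and in bulk tissue fewer cells of a type and less RNA per cell cannot be told apart.

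**Figure D2:**
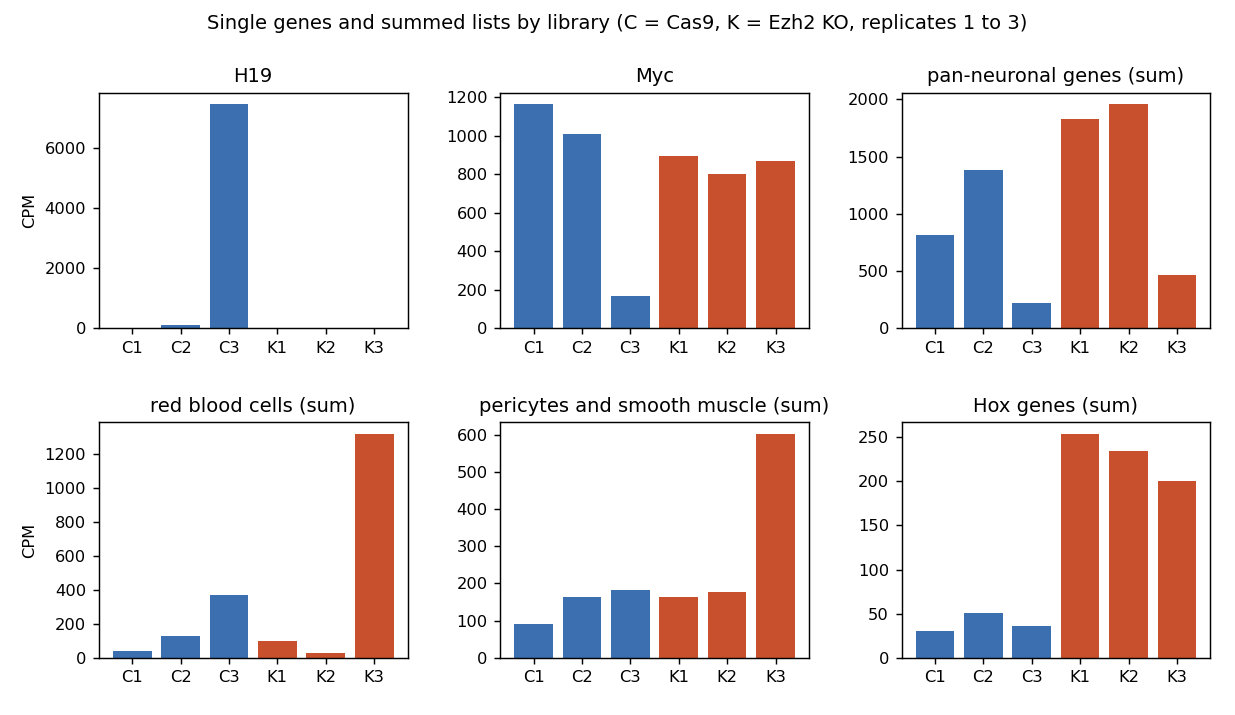
CPM of H19, of Myc and of 4 summed gene lists (bars, linear axis from 0) in each library, with C1 to C3 for the Cas9 and K1 to K3 for the Ezh2 KO replicates. C3 is high in H19 (7447) and low in Myc (168), K3 is high in the red blood cell sum (1321), and the Hox sum is 30.6 to 50.6 in the Cas9 and 200 to 254 in the Ezh2 KO libraries.

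Ezh2 RNA itself was at 77.2, 79.0 and 65.8 CPM in the Cas9 libraries and at 85.8, 63.3 and 77.8 CPM in the Ezh2 KO libraries. The arms overlapped, with a log2 change of 0.03 ± 0.18 (SE, n = 3 per arm, adjusted p = 0.977 in edgeR), and the sign of this small difference turned without Cas9 replicate 3 (-0.07), without Ezh2 KO replicate 1 (-0.07) and with no low-count filter (-0.02). A count over the whole gene does not show whether its coding sequence was edited, so the level checks neither label. None of the 11 PRC2 genes tested was called, where 0.174% of all tested genes were. Rbbp7, a histone-binding subunit, was at 498 ± 146 CPM in Cas9 and 259 ± 21.6 CPM in Ezh2 KO (SD, n = 3 each; adjusted p = 0.315), with the libraries of the arms apart. Eed was at 61.0 ± 2.02 and 54.5 ± 1.27 CPM (adjusted p = 0.822). Of the 21 PRC1 genes, which code for the other main Polycomb complex, none was called, beside the same 0.174%.

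Myc, the oncogene of the model, was at 1163, 1009 and 168 CPM in Cas9 and at 892, 799 and 869 CPM in Ezh2 KO. The Cas9 libraries ranged widely and took in the Ezh2 KO values. Its log2 change was 0.13 ± 0.63 (adjusted p = 0.976 in edgeR), and it was -0.37 without Cas9 replicate 3. Gfi1, a repressor that cooperates with Myc in this tumor type, had 11 reads in all in Cas9 and 41 in Ezh2 KO and was below the filter, as was Gfi1b with 4 and 9. Trp53 (28.9 ± 4.90 and 30.5 ± 8.99 CPM), Cdkn2c, which encodes p18 (10.9 ± 5.90 and 9.45 ± 4.59 CPM), and Cdkn2a (43.0 ± 14.6 and 36.7 ± 2.66 CPM) had adjusted p of 0.965, 0.953 and 0.868. Reads of Trp53 and Cdkn2c were thus present in both arms, and a count over the whole gene cannot check the genotype label of either. Xist was at 408 to 848 CPM in the 6 libraries, and the Y-linked genes Ddx3y, Eif2s3y and Kdm5d had at most 2 reads in an arm.

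Hox genes made up 9 of the 28 genes that rose. Of the 39 in the files 29 were tested, 9 passed in the higher direction and none in the lower, with a median log2 change of 5.67 beside -0.0185 for all tested genes. Of the 29, 23 lay higher in every Ezh2 KO library than in any Cas9 library and 4 lay lower. Over all tested genes 0.168% passed in the higher direction, and the arms lay apart in 7.95% higher and 6.83% lower. The Hox list was chosen with earlier results of these data known, so these shares describe it and give no independent support. In 23 of the 29 the Cas9 mean was under 1 CPM. The test called 1 of 11 Hoxa genes, 1 of 7 Hoxb, 2 of 5 Hoxc and 5 of 6 Hoxd, and the medians of the clusters were 1.72, 6.14, 5.60 and 8.16 on the log2 scale. The count of 9 was 3 without Cas9 replicate 1, 4 without Cas9 replicate 3 and 0 without Cas9 replicate 2 or any 1 Ezh2 KO library, and it was 0 with the replicate block.

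Hoxd13 was at 0, 0.155 and 0.0449 CPM in Cas9 and at 42.3, 41.5 and 64.8 CPM in Ezh2 KO. All Ezh2 KO libraries were far above the Cas9 libraries, with a log2 change of 9.30 ± 0.85 (SE, n = 3 per arm, adjusted p = 0.0272). Hoxd8 was at 0, 0.0222 and 0.0449 CPM in Cas9 and at 20.7, 19.6 and 19.3 CPM in Ezh2 KO. With 2 reads in the Cas9 arm, the ratio of the arms was 999, and its 95% counting interval ran from 276 to 8254 (exact binomial, counting error only). Hoxd10 was at 0, 0 and 0.0449 CPM in Cas9 and at 7.17, 7.41 and 4.47 CPM in Ezh2 KO, a ratio of 652 (117 to 25799) on 1 Cas9 read. Hoxd4 was at 0, 0.0222 and 0 CPM and at 3.01, 2.07 and 2.25 CPM, a ratio of 242 (43.1 to 9605) on 1 read. In these Hoxd genes the Ezh2 KO libraries lay close together, and the Cas9 arm held at most 8 reads of a gene. Their adjusted p were 0.0140 (Hoxd8), 0.0469 (Hoxd10) and 0.0368 (Hoxd4). Hoxd3 rose from 0.0672 ± 0.0226 to 6.61 ± 1.11 CPM (log2 change 6.51 ± 0.50, adjusted p = 0.0140). The Hoxd3 and Hoxd4 genes overlap on the same strand in the GENCODE annotation. Ambiguous reads were left out, so reads in the overlap may be missing from both counts, and the authors' annotation is not given.

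Hoxb13, the last gene of its cluster, was at 0, 0.0222 and 0 CPM in Cas9 and at 19.6, 9.92 and 4.75 CPM in Ezh2 KO. The Ezh2 KO libraries differed among themselves but all stood above Cas9, with a ratio of 1139.6 (204 to 45049.6) on 1 Cas9 read (adjusted p = 0.0368). Hoxa10, a posterior gene, was at 0, 0.0444 and 0.0449 CPM in Cas9 and at 26.0, 28.2 and 20.1 CPM in Ezh2 KO, a ratio of 845 (289 to 4101) on 3 reads (adjusted p = 0.0140). Hoxc8 was at 0.0547 ± 0.0312 and 2.68 ± 0.210 CPM (log2 change 5.60 ± 0.56) and Hoxc4 at 0.0547 ± 0.0312 and 2.02 ± 0.258 CPM (log2 change 5.19 ± 0.56), both with an adjusted p of 0.0368. Hoxc8 overlaps Hoxc5 on the same strand in the GENCODE annotation.

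Within the Hoxa cluster the direction of the values differed between its ends. Hoxa2, Hoxa3, Hoxa4 and Hoxa5, anterior genes, had log2 changes of -2.86 ± 0.56, -1.85 ± 0.49, -2.24 ± 0.41 and -2.40 ± 0.36, with the arms apart, yet their adjusted p were 0.162, 0.333, 0.142 and 0.0921 and none was called. Hoxa5 was at 11.2, 14.4 and 19.2 CPM in Cas9 and at 2.28, 2.86 and 3.35 CPM in Ezh2 KO. Hoxa9, Hoxa11 and Hoxa13 lie at the other end, and they were higher in every Ezh2 KO library without a call. Hoxa11 was at 0, 0.0444 and 0 CPM in Cas9 and at 25.5, 27.4 and 4.71 CPM in Ezh2 KO (adjusted p = 0.0644), and Hoxa13 at 0, 0.0222 and 0.0449 CPM and at 9.81, 2.83 and 1.95 CPM (adjusted p = 0.0921). Hoxa9 was at 0.180, 6.10 and 0 CPM in Cas9 and at 36.4, 31.2 and 20.7 CPM in Ezh2 KO, with Cas9 replicate 2 well above its fellows (adjusted p = 0.63). Values in Ezh2 KO were thus lower from Hoxa2 to Hoxa5 and higher from Hoxa9 on, and of the Hoxa genes tested only Hoxa10 passed. These genes were named after their values were seen.

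**Figure D3:**
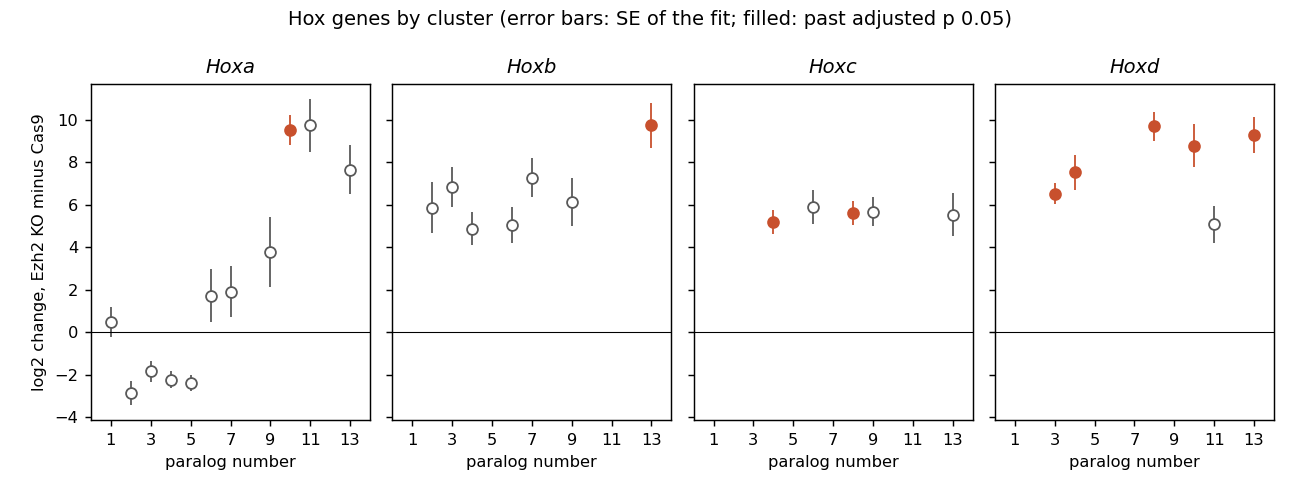
Log2 change (Ezh2 KO minus Cas9, with SE of the fit) of the 29 tested Hox genes against paralog number in the 4 clusters, filled where the gene passed adjusted p 0.05. Hoxa2 to Hoxa5 lie below 0 and all tested Hoxb, Hoxc and Hoxd genes above it, and for genes with 3 or fewer Cas9 reads the fitted size depends on the prior count.

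Genes of the fetal programme were among those that rose. Of 9 tested, 4 rose, none fell and all 9 had positive log2 changes, with a median of 5.14. Over all tested genes 0.168% rose and 48.2% had a positive change. This list was chosen with earlier results of these data known, so the contrast is a description and no independent support. The Lin28 proteins block maturation of the let-7 microRNAs, the Igf2bp proteins bind and stabilise messenger RNAs, and Hmga2 is a chromatin protein of embryonic tissue. Lin28b was at 0.450, 0.333 and 0.180 CPM in Cas9 and at 99.1, 94.6 and 43.5 CPM in Ezh2 KO. All 3 Ezh2 KO libraries stood far above the Cas9 libraries, with a log2 change of 7.89 ± 0.54 (adjusted p = 0.0140). Igf2bp3 was at 0.750, 0.333 and 0.404 CPM in Cas9 and at 108, 102 and 70.0 CPM in Ezh2 KO. Its log2 change was 7.55 ± 0.44 (adjusted p = 0.00979). Igf2bp1 was at 0.0300, 0.0888 and 0.0898 CPM and at 48.8, 99.3 and 18.8 CPM, so that the Ezh2 KO libraries ranged widely among themselves (log2 change 9.58 ± 0.90, adjusted p = 0.0299). Hmga2 rose from 0.263 ± 0.0521 to 5.57 ± 1.39 CPM (log2 change 4.39 ± 0.45, adjusted p = 0.0368). Plag1, a zinc finger factor, was at 0.246 ± 0.247 and 35.5 ± 2.15 CPM without a call (adjusted p = 0.0881), as was Igf2bp2 at 0.918 ± 0.893 and 33.1 ± 9.48 CPM (adjusted p = 0.109).

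Transcription factors of mesenchyme, limb and heart rose in the Ezh2 KO arm as well. Of 17 tested genes in the mesenchymal and limb list 4 rose and none fell, and 8 were higher at an unadjusted p below 0.05, with a median log2 change of 0.48. Over all tested genes 0.168% rose and 5.36% were higher at that unadjusted p. This list, too, was chosen with earlier results of these data known, and the shares only describe it. Twist2, which holds mesenchymal progenitors undifferentiated, was at 0, 0.0222 and 0 CPM in Cas9 and at 6.18, 5.83 and 6.32 CPM in Ezh2 KO. The Ezh2 KO libraries were nearly equal, and on 1 Cas9 read the ratio was 612 (109 to 24212; adjusted p = 0.0254). Alx1, a craniofacial homeobox gene, was at 0.0300, 0 and 0.0898 CPM and at 13.6, 15.3 and 13.8 CPM, a ratio of 482 (164 to 2338) on 3 reads (adjusted p = 0.0368). Pitx1, a hindlimb homeobox gene, was at 0, 0.0666 and 0.0449 CPM and at 10.6, 9.85 and 15.6 CPM (log2 change 8.15 ± 0.84, adjusted p = 0.0368). Hand2, a heart and limb factor, was at 0, 0.0222 and 0 CPM and at 2.78, 3.79 and 2.25 CPM, a ratio of 305 (54.4 to 12106) on 1 read (adjusted p = 0.0368). In each of these genes no Cas9 library came near an Ezh2 KO library. Twist1 was at 0.0900, 0.932 and 0.763 CPM and at 30.2, 36.8 and 22.9 CPM and missed the threshold (adjusted p = 0.0905), as did Dlx6 at 0.202 ± 0.138 and 12.1 ± 7.27 CPM (adjusted p = 0.0881).

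Gata4, a factor of heart and endoderm, was the only called gene of 9 tested in the Gata and blood list. It was at 0.0900, 0.0666 and 0.0449 CPM in Cas9 and at 5.52, 4.73 and 5.80 CPM in Ezh2 KO. The Ezh2 KO libraries lay close together and above all Cas9 libraries, with a log2 change of 6.21 ± 0.49 (adjusted p = 0.0154). Tal1, a blood and interneuron factor, was at 0.570, 0.488 and 0.628 CPM and at 14.8, 35.6 and 9.22 CPM and missed the threshold (adjusted p = 0.0593). Six4, a homeobox gene of muscle and sensory placodes, rose from 1.34 ± 0.141 to 26.2 ± 3.43 CPM (log2 change 4.29 ± 0.29, adjusted p = 0.0140) as the only called gene of 13 tested in a list of Pax, Vax and related developmental genes. In that list Vax2, an eye factor, was at 0.0374 ± 0.0469 and 7.57 ± 2.36 CPM (adjusted p = 0.0529). Pax3 was at 16.4 ± 9.47 CPM in Cas9 and 1.32 ± 0.723 CPM in Ezh2 KO, without a call (adjusted p = 0.143). Tfap2a, a neural crest factor outside the lists, rose from 0.0572 ± 0.0111 to 1.58 ± 0.513 CPM (log2 change 4.67 ± 0.53, adjusted p = 0.0468).

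Other developmental lists held no called gene, although single members came near. Mnx1, a motor neuron factor, had 0 reads in Cas9 and 0.826, 0.714 and 0.751 CPM in Ezh2 KO, which was at least 25.5-fold higher when Cas9 is set to 3 counts over the arm (adjusted p = 0.0881). Isl1, a LIM homeobox gene, was at 0.120 ± 0.0524 and 21.3 ± 17.4 CPM (adjusted p = 0.109) and Tbx18 at 1.05 ± 0.669 and 14.4 ± 1.88 CPM (adjusted p = 0.101). Nkd2, an antagonist of Wnt signalling, was at 1.08 ± 0.341 and 8.94 ± 3.14 CPM (adjusted p = 0.107). Ccnd2, a D-type cyclin, was at 3.57, 11.01 and 2.56 CPM in Cas9 and at 139, 82.6 and 122 CPM in Ezh2 KO, and the arms lay apart without passing the test (adjusted p = 0.0881). None of the 29 replication and mitosis genes, the 23 ribosome biogenesis genes driven by Myc, the 23 Trp53 targets tested or the 14 granule neuron progenitor genes tested was called, and their median log2 changes were -0.13, -0.10, 0.01 and -0.25. With 0.174% of all tested genes called, lists of this size would seldom hold one.

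Zdbf2, an imprinted gene expressed from the paternal copy, had the lowest adjusted p of all genes (0.00398). It was at 0.660, 0.377 and 0.539 CPM in Cas9 and at 102, 163 and 151 CPM in Ezh2 KO, a log2 change of 8.05 ± 0.36. With the spread pooled over 18 libraries Zdbf2 missed the threshold (adjusted p = 0.114 in edgeR), and the SE was 2.04. That spread takes in other lines, among them the Cas9 libraries of line 19251 with 140, 0.135 and 0.236 CPM of Zdbf2. The miss is therefore not a measure of the 6 libraries of line 19554 alone. Peg10, a paternally expressed gene derived from a retrotransposon, was at 27.5, 24.5 and 35.6 CPM and at 414, 759 and 450 CPM (log2 change 4.21 ± 0.32, adjusted p = 0.0140). In both genes the Ezh2 KO libraries stood well above every Cas9 library. Sfmbt2, which codes for a Polycomb group protein and is imprinted in the mouse placenta, rose from 0.521 ± 0.265 to 25.6 ± 8.36 CPM (log2 change 5.60 ± 0.57, adjusted p = 0.0368). The list of imprinted growth genes did not include Zdbf2 or Sfmbt2. Of its 13 genes tested, Peg10 was the only one called, and the median log2 change was -0.47. Igf2r was at 57.8 ± 47.3 and 346 ± 69.3 CPM (adjusted p = 0.254), while Mest was at 235 ± 234 and 12.3 ± 9.96 CPM (adjusted p = 0.316) and Grb10 at 42.4 ± 27.6 and 10.5 ± 2.35 CPM (adjusted p = 0.352). H19 and Igf2, the genes high in Cas9 replicate 3, had adjusted p of 0.5 and 0.516.

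Nefl and Nefm, the light and medium neurofilament chains, were the only called genes of 20 tested pan-neuronal genes. Nefl was at 0.810, 0.377 and 0.539 CPM in Cas9 and at 77.4, 152 and 52.7 CPM in Ezh2 KO (log2 change 7.35 ± 0.60, adjusted p = 0.0163). Nefm was at 0.296 ± 0.0618 and 18.01 ± 7.03 CPM (log2 change 5.90 ± 0.51, adjusted p = 0.0229). Both were high in every Ezh2 KO library and low in every Cas9 library. The genes overlap on opposite strands in the GENCODE annotation, and whether the authors counted by strand is not given in the sources used here. The summed level of the pan-neuronal list overlapped between the arms, with 218 to 1381 CPM in Cas9 and 468 to 1959 CPM in Ezh2 KO. Of the 20 genes 18 had positive log2 changes, with a median of 0.79, where 48.2% of all tested genes had a positive change. The choice of this list with earlier results of these data known limits that contrast to a description.

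The other genes that rose belonged to none of these groups. Rgs4, a regulator of G protein signalling, rose from 3.74 ± 1.98 to 77.2 ± 10.1 CPM (log2 change 4.36 ± 0.44). Zfp618, a zinc finger gene, rose from 0.372 ± 0.177 to 8.92 ± 0.890 CPM (log2 change 4.55 ± 0.49), and Gjc1, a gap junction connexin, from 2.47 ± 0.357 to 28.5 ± 9.85 CPM (log2 change 3.52 ± 0.38). The adjusted p was 0.0368 in each. Angpt1 was at 88.6, 74.8 and 168 CPM in Cas9 and at 9.94, 6.35 and 6.73 CPM in Ezh2 KO. Each Ezh2 KO library was below every Cas9 library, and the log2 change was -3.85 ± 0.40 (adjusted p = 0.0368), a call kept in 1 of the 6 fits with a library left out. The endothelial markers held no called gene, where 0.174% of all tested genes were called. They summed to 78.6 to 129 CPM in Cas9 and 85.2 to 129 CPM in Ezh2 KO.

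Lines 19251 and 19568 of the same model have a Cas9 and an Ezh2 KO arm of their own, with 3 libraries each and no library shared with line 19554. In line 19251, 23 of the 28 genes that rose in line 19554 had a positive change, as did 44.9% of all 18514 genes tested in an 18-library fit. Of the 28, 12 were called higher there, where 0.243% of all genes were. In line 19568, 23 were positive, as were 46.5% of all genes, and 1, Gata4, was called, where 0.027% were. In line 19554 the same fit called 21 of the 29 genes. All 28 had a smaller change in line 19568 than in line 19554, and 3 of these differences passed the test. Against line 19251, 22 had a smaller change there and 1 difference passed. The 28 were chosen by their rise in line 19554, which favours smaller changes elsewhere. The 18-library fit has 1 estimate of the spread per gene, which takes in the libraries of line 19554. Calls in lines 19251 and 19568 are therefore not independent of that choice. The Gata4 call was lost in line 19568 without its Cas9 replicate 2 or any 1 of its Ezh2 KO libraries, and 6 genes were called without its Cas9 replicate 1. In line 19251, Cas9 replicate 1 stood apart, with Myc at 11.6 CPM against 705 and 313 in the other Cas9 libraries and Cdkn2a at 0.310 against 37.5 and 44.9. The Cas9 libraries of that line also differed in sex-linked genes. Xist ran from 12.9 to 609 CPM in them, Ddx3y from 0.0443 to 84.5 and Eif2s3y from 0 to 61.9. In the Ezh2 KO libraries of line 19251 Ddx3y ran from 70.9 to 116 CPM. Cas9 replicate 1 was kept in the counts above and in the tests between lines. Without that library 27 of the 28 genes were positive in line 19251 and 13 were called, and Zdbf2, Nefl, Nefm and Rgs4 turned from log2 changes of -1.17, -2.83, -3.14 and -2.32 to 6.69, 1.85, 1.498 and 2.35. Leaving out libraries of these lines was chosen after the data were seen. All 9 called Hox genes had positive changes in both other lines, and 5 of them were called in line 19251. Hoxd10 was near the floor in line 19251, at 0, 0 and 0 CPM in Cas9 and 0.120, 0.0838 and 0 CPM in Ezh2 KO. Its positive change there (adjusted p = 0.232 in edgeR) does not show a rise. On the scale of this fit Gata4 was at 0, 0 and 0 CPM in Cas9 and 2.18, 2.18 and 2.65 CPM in Ezh2 KO of line 19251, and at 0.242, 0.107 and 0 CPM and 4.23, 4.06 and 5.87 CPM in line 19568. Gata4 was therefore low in every Cas9 library and higher in every Ezh2 KO library of all 3 lines.

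**Figure D4:**
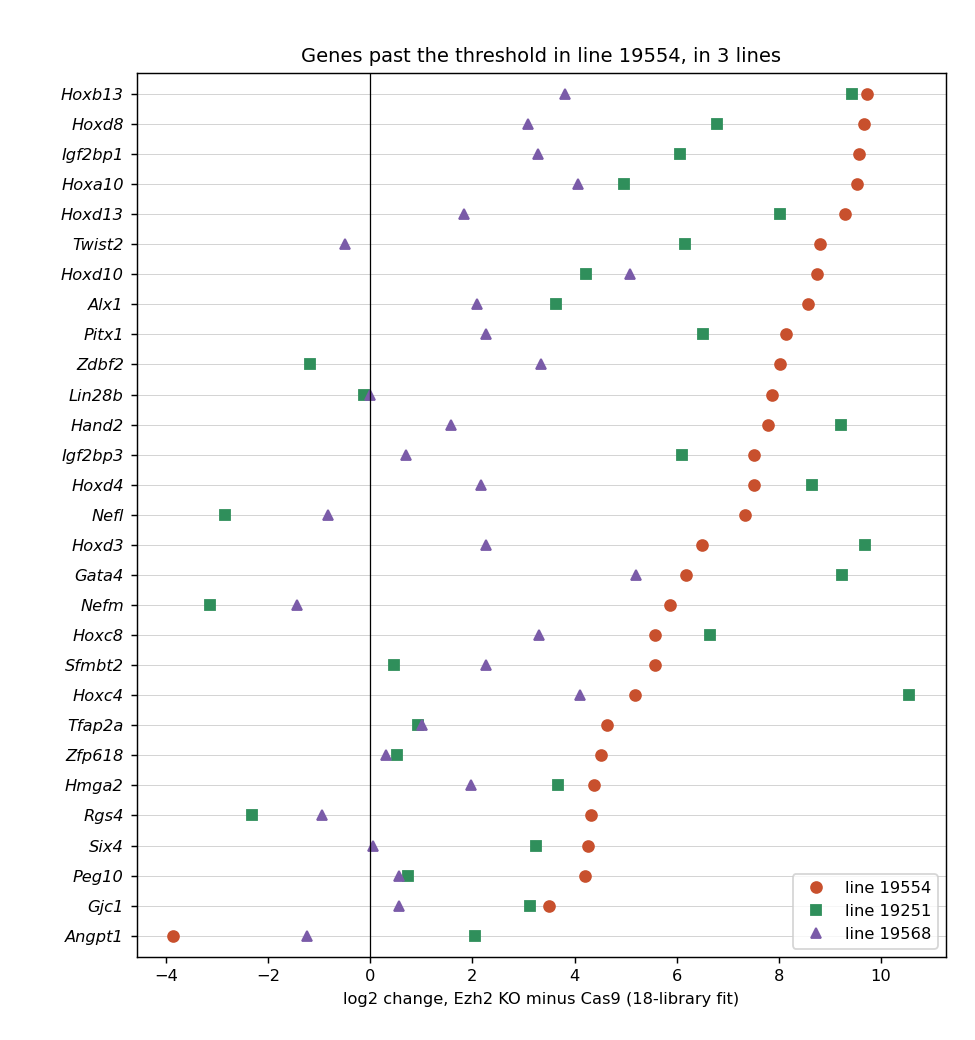
Log2 change (Ezh2 KO minus Cas9, 18-library fit) of the 29 genes in line 19554 (circles), line 19251 (squares) and line 19568 (triangles). Most line 19251 points are positive, up to 10.5 for Hoxc4, and those of Zdbf2, Nefl, Nefm and Rgs4 are negative only with Cas9 replicate 1 of that line. The line 19568 points of the 28 genes that rose are all smaller than those of line 19554, the line by which the genes were chosen. Lin28b lies at 7.87, -0.13 and -0.0019 and Angpt1 at -3.86, 2.06 and -1.25 in lines 19554, 19251 and 19568.

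The difference of the change between lines was tested for all genes in the same fit, and few genes passed: 2 against line 19251 (0.0108% of all) and 3 against line 19568 (0.0162%). Lin28b passed both. It was at 14.4, 78.3 and 43.6 CPM in Cas9 and 29.8, 31.2 and 63.5 CPM in Ezh2 KO of line 19251, and at 41.5, 27.9 and 30.5 CPM and 28.6, 30.4 and 40.9 CPM in line 19568. In both of these lines the arms overlapped, and all 12 libraries lay above every Cas9 library of line 19554, which held 0.178 to 0.476 CPM. The change of Lin28b in line 19554 exceeded that in line 19251 by 8.002 ± 0.82 and that in line 19568 by 7.87 ± 0.82 (log2, SE; adjusted p = 0.00173 and 0.00103). Twist2 and Igf2bp3 passed against line 19568, by 9.31 ± 0.85 (adjusted p = 0.000337) and 6.82 ± 0.83 (adjusted p = 0.00486). Twist2 was already at 42.4, 29.9 and 51.2 CPM in the Cas9 arm of line 19568, against 23.8, 25.7 and 38.3 CPM in its Ezh2 KO arm. Igf2bp3 was at 75.0, 26.6 and 48.5 CPM and at 73.5, 67.6 and 104 CPM there. In line 19251 Igf2bp3 was low in Cas9, at 0.133, 1.30 and 1.36 CPM, and high in Ezh2 KO, at 66.1, 61.2 and 69.9 CPM, as in line 19554.

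**Figure D5:**
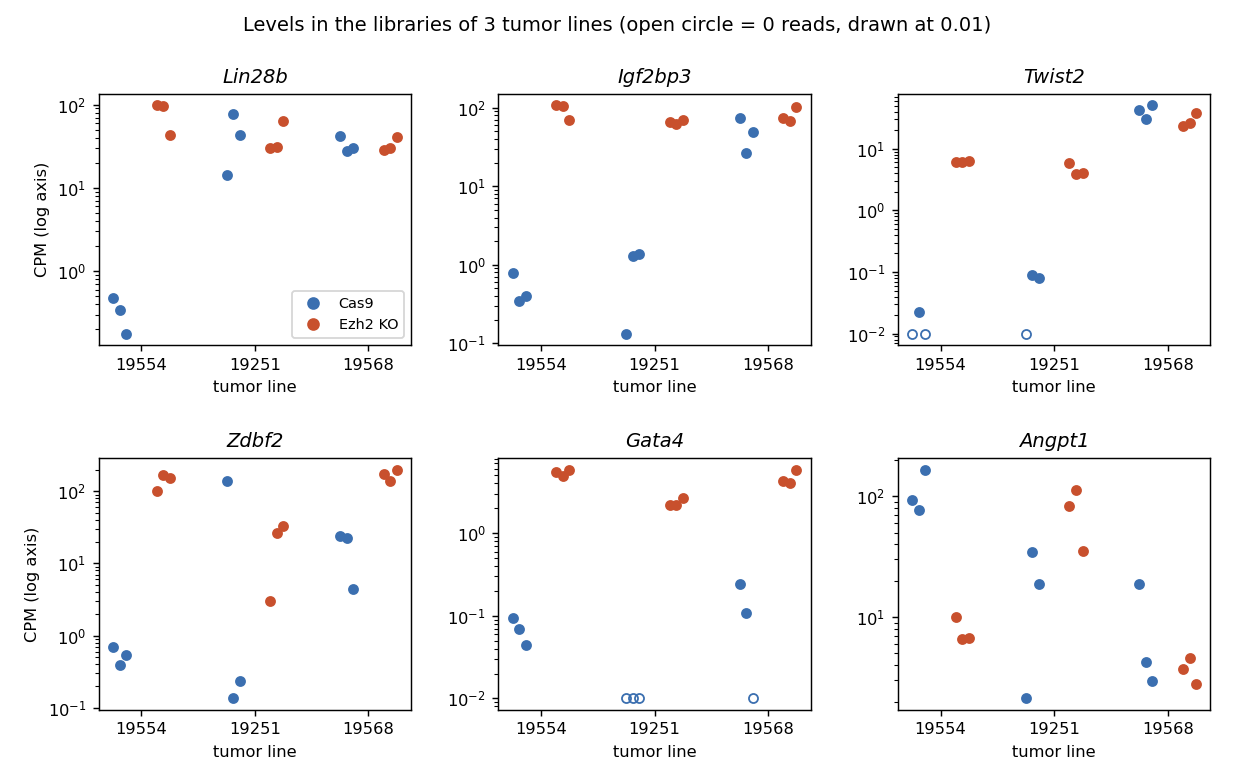
CPM (log axis, 18-library scale) of 6 genes in each Cas9 (blue) and Ezh2 KO (red) library of the 3 lines, with open circles for 0 reads, drawn at 0.01. Lin28b is low only in the Cas9 libraries of line 19554 (0.178 to 0.476), Twist2 is high in both arms of line 19568, and Gata4 is low in every Cas9 and higher in every Ezh2 KO library.

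Levels in the Cas9 arms set line 19554 beside the others. Of its 28 genes that rose, 24 had a Cas9 mean under 1 CPM in that line, whereas 11 were above 1 CPM in the Cas9 arm of line 19251, 16 in that of line 19568 and 10 in both. The choice of these genes by their rise in line 19554 favours low Cas9 levels in that line. The counts therefore do not compare the lines. Single libraries made some of the levels in the other lines. In the Cas9 libraries of line 19251 Nefl was at 566, 0.673 and 14.2 CPM, Rgs4 at 321, 3.27 and 5.29 CPM and Zdbf2 at 140, 0.135 and 0.236 CPM, with replicate 1 far above the others in each. In those of line 19568 Nefl was at 20.7, 85.2 and 23.6 CPM, and Rgs4 at 13.3, 101 and 5.23 CPM. The Cas9 libraries of line 19554 held 0.389 to 0.857 CPM of Nefl and 1.95 to 6.06 CPM of Rgs4, so Rgs4 levels overlapped between the lines outside the high libraries. Angpt1 was at 93.8, 77.1 and 166 CPM in Cas9 of line 19554, 2.13, 34.7 and 18.7 CPM in line 19251 and 18.9, 4.22 and 2.99 CPM in line 19568, so every Cas9 library of line 19554 was above those of the other lines. In Ezh2 KO it was at 82.9, 113 and 35.0 CPM in line 19251 and 3.70, 4.55 and 2.80 CPM in line 19568. Its log2 change was thus positive in line 19251 (2.06) and negative in line 19568 (-1.25), without a call in either. The difference between lines 19554 and 19251 was not called (adjusted p = 0.217 in edgeR). The Cas9 levels were not tested against each other.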

How the data were processed

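RNA-seq libraries were prepared from total RNA with a stranded paired-end protocol, per the labels. The authors deposited raw read counts per gene for each library, named by gene symbol, and the submitters' processing notes name CASAVA 1.7, STAR, BWA, HTSeq, limma, R 3.2.3 and the build mm9. The annotation and strand setting are not given in the sources used here. The 5 lines closing each file count reads on no gene (24.0% to 42.6%), ambiguous reads (1.06% to 2.26%), unaligned reads (3.54% to 6.10%) and the like, and were left out. Depth was 22826419 to 42892573 reads on 34590 genes.

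Counts were fitted with edgeR 4.0.16 in R 4.3.3 (TMM, filterByExpr, quasi-likelihood F-test, 2 group means, 4 residual degrees of freedom), with Benjamini-Hochberg adjustment over 16626 genes and a call at adjusted p below 0.05. Differences between lines came from 18 libraries with 6 group means. Alternatives were RLE scaling, DESeq2 1.42.0, limma-voom (limma 3.58.1), other filters, a replicate block, pooled spread and each library left out. The script was tested on simulated data. For genes with 1 to 3 Cas9 reads the ratio of summed levels is given with an exact 95% binomial interval, and with 0 reads a floor of 3 counts over the arm was used. Intervals cover counting error only. Promoter windows are RefSeq's (GRCm38.p6), used for sequence alone.

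Named were the targeted and model genes, every called gene (in full for the 15 largest rises), and up to 6 members of each of 35 pathway lists. The genes, lists and comparison were chosen with earlier results of these data known. No 2 libraries were identical or alike within sampling noise.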

Additional observations from a re-analysis of the deposited data

Results flagged for a closer look

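The change of Lin28b between Ezh2 KO and Cas9 was larger in line 19554 than in line 19251 by 8.002 on the log2 scale (edgeR's quasi-likelihood test of the difference, adjusted p = 0.00173) and than in line 19568 by 7.87 (adjusted p = 0.00103). Both differences passed without any 1 of the 18 libraries, and the first missed the threshold in limma-voom (adjusted p = 0.0564). Twist2 differed from line 19568 by 9.31 (adjusted p = 0.000337) and Igf2bp3 by 6.82 (adjusted p = 0.00486), and both passed without any 1 library. The gene 9830147E19Rik differed from line 19251 by 4.89 (adjusted p = 0.0483), and with a library left out it passed in 3 of 18 fits, with adjusted p from 0.0166 to 0.238. It passed in 1 of 4 other settings, and missed in limma-voom, with no low-count filter and with the replicate block. The gene was called neither in line 19554 (adjusted p = 0.137 in edgeR) nor in line 19251 (adjusted p = 0.206). It was at 0.450, 1.20 and 0.628 CPM in Cas9 and at 13.6, 5.42 and 5.91 CPM in Ezh2 KO of line 19554. In line 19251 it was at 8.68, 18.7 and 13.6 CPM in Cas9 and at 6.55, 4.42 and 3.77 CPM in Ezh2 KO.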

How the results depend on the processing

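With RLE scaling 29 genes were called and with a filter of 1 CPM in 3 libraries 37, and all of the 29 were among them. The count was 522 in DESeq2 (73.8% of calls higher, against 96.6%), 62 in limma-voom, 68 with no low-count filter, 89 with the spread pooled over 18 libraries, 75 at adjusted p below 0.1 and 4 with the replicate block, and 1 to 19 with a library left out. Of the 29, all were called in DESeq2 and with no low-count filter, and 27 in limma-voom, without Igf2bp1 and Gjc1. With pooled spread 21 were called, without Zdbf2 (adjusted p = 0.114 in edgeR), Nefl, Nefm, Rgs4, Hoxc8, Tfap2a, Zfp618 and Angpt1. All 29 kept their direction in each of these settings, which again follows from arms that lie apart. Hox genes called higher numbered 21 in DESeq2 (with 4 called lower), 15 with no filter, 15 at adjusted p below 0.1, 0 with the block and 0 to 4 with a library left out. With the block, Zdbf2, Lin28b and Igf2bp3 were the called genes shared with the 29.

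The block was not taken as the design. Deviations of libraries with the same number correlated at 0.101, 0.0781 and 0.277 over 16626 genes (log2 CPM, prior count 2) and at 0.150, 0.128 and 0.321 on log2(CPM + 1), and Cas9 replicate 1 correlated best with Ezh2 KO replicate 2 (0.221). These scales fall on either side of the rule, and the block count was known when the choice was made.

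Chosen after the data were seen, leaving out single libraries of the other lines gave 8 to 15 of the 28 genes called higher in line 19251 and 0 to 6 in line 19568. Differences against line 19251 numbered 0 in limma-voom, 1 with no filter, 1 with the replicate block and 1 to 9 with a library left out, and against line 19568 1 with the replicate block and 3 to 21 with a library left out. With that block Twist2 and Igf2bp3 missed the threshold against line 19568 (adjusted p = 0.0717 and 0.153). Signs that turned were those of genes with no call. Ezh2 was at -0.022 (log2 change) with no filter, and with a library left out it ran from -0.073 to 0.133, Myc from -0.37 to 0.53, Trp53 from -0.18 to 0.22, Cdkn2c from -0.65 to 0.26 and Cdkn2a from -0.39 to 0.061. The cause of these changes was not tested. At the Cas9 depth, 1 to 3 reads per arm leave the size of 8 of the rises uncertain.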

Other observations

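Of the 35 pathway lists, 28 held no called gene, where 0.174% of all tested genes were called. The median log2 changes of these 28 lists ran from -0.72 to 2.17. In the list of glutathione and lipid peroxide defence genes, Gpx4, which reduces lipid peroxides, was at 167 ± 33.5 CPM in Cas9 and 99.8 ± 13.1 CPM in Ezh2 KO (SD, n = 3 each; adjusted p = 0.357 in edgeR). Ftl1, a ferritin chain, was at 499 ± 47.1 and 341 ± 49.1 CPM (adjusted p = 0.414), and Gsr, the glutathione reductase, at 119 ± 28.7 and 74.7 ± 9.10 CPM (adjusted p = 0.497). In these genes every Ezh2 KO library was below every Cas9 library, as in 6.83% of all tested genes.

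Mxd4, a partner of Max that opposes Myc, was at 63.5 ± 10.6 CPM in Cas9 and 30.9 ± 3.96 CPM in Ezh2 KO (adjusted p = 0.162). Col3a1, a fibrillar collagen, was at 70.5, 200.4 and 62.7 CPM in Cas9 and at 383, 498 and 893 CPM in Ezh2 KO (adjusted p = 0.263), with its highest value in Ezh2 KO replicate 3, the library with the highest pericyte and smooth muscle sum. The part of that library in the value was not tested. Tex15, a meiotic gene outside the lists that was singled out after its values were seen, was at 1.29, 1.75 and 0.943 CPM in Cas9 and at 17.6, 22.4 and 46.7 CPM in Ezh2 KO (adjusted p = 0.0516).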
